A study of Mus musculus with 36 samples.

Results

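Type I interferon-stimulated genes were followed in mouse bone-marrow-derived macrophages and in glioma tumour cells grown with or without each other and fed myelin debris. The set is a list of 39 gene symbols (Ifit, Oas and Mx genes, Isg15, Irf7, Stat2, Usp18 and others) looked up by symbol in a table of 29883 genes, and all 39 were found. The tumour cells are the line PDG-Ink4a Recurrent, from a mouse glioma model in which platelet-derived growth factor B is expressed in Nestin-positive progenitors on an Ink4a/Arf-null background. Each cell type was sequenced from co-culture with the other and from mono-culture, at 0, 6 and 24 h after myelin, which gives 12 groups of 3 libraries. The groups were macrophages in co-culture, macrophages in mono-culture, tumour cells in co-culture and tumour cells in mono-culture, each at 0 h (labelled control), 6 h (6 hour myelin debris) and 24 h (24 hour myelin debris). All macrophages came from bone marrow and were sorted as dTomato-positive cells per the labels' protocols, and all tumour cells came from 1 line, called MES-like in those protocols. No group had the later times without myelin, so time in culture and myelin cannot be told apart. The labels give each library a number from 001 to 003 and do not say whether 002 and 003 are separate animals or cultures, so the spread behind each p-value may in part be technical.

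Type I interferons are secreted proteins that bind a receptor made of the Ifnar1 and Ifnar2 chains on the same or on neighbouring cells. The receptor-bound kinases Jak1 and Tyk2 then phosphorylate transcription factors such as Stat2, which joins Irf9 in a complex that binds the interferon-stimulated response element in the promoters of responding genes. The genes followed here include parts of that complex (Stat2, Irf9), an amplifier (Irf7), a brake on the receptor (Usp18), sensors of viral nucleic acid and proteins that block viral entry, replication or spread.

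Promoter sequence is shown for a strongly moving effector, a ubiquitin-like modifier, a secreted chemokine and a part of the signalling complex. It is also shown for the member most abundant per kilobase of exon. Matches to the core of the response element can be compared between them. Windows run from 250 bases before to 50 bases after the start of the gene, 5′ to 3′ on the gene's strand, from RefSeq on GRCm38.p6. Capitals mark every match of GAAANNGAAA, the core of the response element, on either strand. The windows lie at chr19:34640639-34640938 on the plus strand (Ifit1), chr4:156200769-156201068 on the minus strand (Isg15), chr5:92348840-92349139 on the minus strand (Cxcl10), chr10:128270248-128270547 on the plus strand (Stat2) and chr7:141010695-141010994 on the minus strand (Ifitm3).
Ifit1: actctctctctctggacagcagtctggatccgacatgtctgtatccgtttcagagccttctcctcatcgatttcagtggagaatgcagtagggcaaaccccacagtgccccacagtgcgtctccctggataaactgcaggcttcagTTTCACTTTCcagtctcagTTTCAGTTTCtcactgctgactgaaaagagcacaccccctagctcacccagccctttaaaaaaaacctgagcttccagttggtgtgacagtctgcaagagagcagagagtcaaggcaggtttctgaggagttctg
Isg15: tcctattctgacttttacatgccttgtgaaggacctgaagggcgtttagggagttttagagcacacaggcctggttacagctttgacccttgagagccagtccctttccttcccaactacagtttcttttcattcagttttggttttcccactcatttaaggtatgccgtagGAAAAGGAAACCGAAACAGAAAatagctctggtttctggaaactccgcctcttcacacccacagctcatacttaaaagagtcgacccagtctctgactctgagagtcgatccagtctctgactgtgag
Cxcl10: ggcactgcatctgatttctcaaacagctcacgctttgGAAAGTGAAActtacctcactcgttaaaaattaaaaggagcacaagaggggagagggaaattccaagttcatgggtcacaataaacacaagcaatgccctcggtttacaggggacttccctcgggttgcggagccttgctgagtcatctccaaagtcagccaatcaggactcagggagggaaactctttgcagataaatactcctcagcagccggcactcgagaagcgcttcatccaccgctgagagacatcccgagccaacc
Stat2: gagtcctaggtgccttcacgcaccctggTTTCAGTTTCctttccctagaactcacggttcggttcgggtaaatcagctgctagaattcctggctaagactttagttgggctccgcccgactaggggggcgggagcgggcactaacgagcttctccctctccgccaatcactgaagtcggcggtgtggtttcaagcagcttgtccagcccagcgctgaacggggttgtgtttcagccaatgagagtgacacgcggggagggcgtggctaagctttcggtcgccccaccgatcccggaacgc
Ifitm3: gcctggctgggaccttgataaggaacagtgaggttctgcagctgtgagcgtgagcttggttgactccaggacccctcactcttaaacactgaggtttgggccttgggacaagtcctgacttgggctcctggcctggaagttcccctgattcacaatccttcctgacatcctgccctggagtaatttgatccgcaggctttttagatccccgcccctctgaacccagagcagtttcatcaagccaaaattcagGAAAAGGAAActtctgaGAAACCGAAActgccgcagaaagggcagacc

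Ifit1 held 2 matches, starting 104 and 85 bases before its start. Isg15 held 3 overlapping matches that ran together, starting 78, 72 and 66 bases before its start. Cxcl10 and Stat2 each held 1 match, starting 213 and 222 bases before the start. Both matches of Ifitm3 began within the bases after its start. Of the 39 genes 29 had a window in the table, and 15 of these (51.7%) held the core in any of their windows, against 1079 of all 27025 genes with a window (3.99%). Among the others, Ifit3, Ifit3b, Rsad2, Bst2, Oas1a, Oas3, Ddx58, Ifih1, Eif2ak2 and Trim30a held a match. A match describes the letters of the window and is not a measured binding site.

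Levels are given in CPM, which are counts scaled by library total and adjusted with TMM factors over all 36 libraries, and the 3 values given for a group are libraries 001, 002 and 003 in that order. Total counts ran from 7911378 to 15319104 per library, with a median of 12262573. Library 001 stood apart from 002 and 003 in several ways. A ribosomal RNA transcript took 4.08% to 17.4% of the counts in macrophage libraries 001, against 0.391% to 1.22% in macrophage libraries 002 and 003. In tumour cells in mono-culture it took 2.99% to 13.4% in libraries 001, against 0.399% to 2.20% in 002 and 003. In tumour cells in co-culture it took 0.267% to 3.23% in libraries 001, against 0.279% to 0.536% in 002 and 003. Xist, expressed from an inactive X chromosome, was at 0 in macrophage libraries 001 and at 535 to 1236 CPM in macrophage libraries 002 and 003. Ddx3y, a gene of the Y chromosome, stood at 64.7 to 80.0 CPM in macrophage libraries 001 and at 0 to 5.86 CPM in macrophage libraries 002 and 003. Macrophage library 001 therefore came from an animal or pool of another sex than the other pair. In co-culture at 24 h library 001 was the highest of the 3 for all 39 genes in macrophages and for 37 in tumour cells, at a median of 1.72 and 1.66 times the mean of the other pair. Results that rest on library 001 are therefore also given from libraries 002 and 003 alone.

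Defining markers were checked against the labels. Summed over 12 macrophage markers, macrophage libraries held 12799 to 21874 CPM, against 13.8 to 1744 CPM in tumour cell libraries. Of 12 glioma markers 10 were in the table, and they summed to 651 to 1216 CPM in tumour cells, against 143 to 302 CPM in macrophages. Olig1 was at 0 in all tumour cell libraries, and Ptprz1 and Gpm6a in all of those from co-culture. Only 5 had enough counts to be tested in mono-culture at 0 h. Of these, 3 were called higher in tumour cells and 2 higher in macrophages, where 37.7% and 32.4% of all genes were. The tumour line also expressed collagen and other fibroblast or endothelial markers at a summed 10545 to 18135 CPM. Markers of conventional dendritic cells summed to at most 2.21 CPM in any library. The 6 markers of plasmacytoid dendritic cells, the main makers of type I interferon in blood, summed to 93.8 to 164 CPM in macrophages in co-culture, against 72.6 to 104 CPM in mono-culture. Each had some counts in macrophage libraries, but only 2 of the 6 had enough to be tested there. In mono-culture at 0 h 2 were tested between the cell types, and both were called higher in tumour cells, where 37.7% of all genes were. The sums therefore do not identify such cells. In tumour cells they summed to 249 to 492 CPM in co-culture, against 318 to 524 CPM in mono-culture, with Siglech, Ccr9 and Ly6d at 0 throughout. The part of such cells in the results was not tested. In bulk RNA, fewer responding cells and less RNA per cell cannot be told apart.

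**Figure D1:**
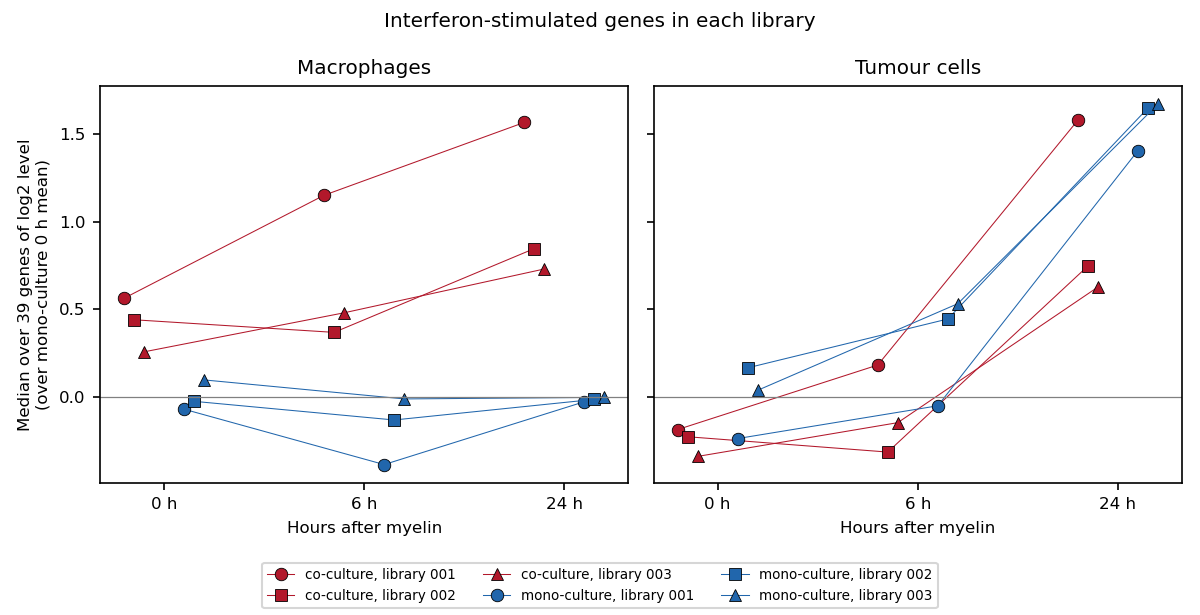
Median over the 39 genes of the log2 level in each library, relative to the mean of the mono-culture 0 h group of the same cell type, against hours after myelin. Red points are co-culture and blue points mono-culture libraries, and shapes give the library number. Macrophages in co-culture lie above those in mono-culture at all times, and tumour cells in both cultures are highest at 24 h.

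Resting differences between the cell types varied in direction from gene to gene. In mono-culture at 0 h, macrophages against tumour cells, edgeR called 18 of the 39 genes higher and 9 lower, where over all genes tested 32.4% were called higher and 37.7% lower. Counted in either direction, the set was called about as often as all genes. All 5 genes of the Oas family, whose enzymes make the activator of the RNA-cutting RNase L or resemble them, were higher in macrophages. All 4 Ifit genes, whose proteins bind viral RNA or help in doing so, were lower in macrophages. Of the 27 genes called, 21 were called in every fit that left out 1 library. The other 6 were Cxcl10, Oasl1, Irf7, Xaf1, Dtx3l and Mx1, with a highest adjusted p of 0.0661 to 0.346, and Irf7 was called in none of its 6 such fits.

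Oas3 stood at 122, 114 and 114 CPM in macrophages, against 3.01, 5.40 and 4.36 CPM in tumour cells, a log2 difference of 4.76 ± 0.36 (the error is the SE here and for all log2 values below). Oas1a stood at 26.0, 29.4 and 34.3 CPM in macrophages, against 0.188, 2.14 and 1.67 CPM in tumour cells (4.43 ± 0.50). Ifi27l2a, whose protein lies in mitochondria or the nuclear envelope, stood at 13.5, 21.3 and 21.4 CPM in macrophages, against 1.32, 3.17 and 3.65 CPM in tumour cells (2.77 ± 0.48). The groups did not overlap for any of the 3. In the other direction, Ifit1 stood at 6.95, 4.81 and 6.36 CPM in macrophages, against 68.8, 41.7 and 37.7 CPM in tumour cells (-3.05 ± 0.50). Ifit3 stood at 2.86, 3.09 and 2.86 CPM in macrophages, against 57.3, 43.3 and 36.2 CPM in tumour cells (-3.94 ± 0.54). Ifit3b, its neighbour and near copy, stood at 0.409, 0.344 and 0.556 CPM in macrophages, against 13.6, 11.3 and 10.6 CPM in tumour cells (-4.73 ± 0.63). These groups did not overlap either. Transcripts of Ifit3 and Ifit3b are 98.0% identical over 1697 aligned bases, and those of Oas1a and Oas1g 97.7% over 1859, so how reads were divided within each pair is uncertain. The same holds where genes overlap, as Irf7 does Phrf1, Irf9 does Rnf31, Rtp4 does Masp1 and Parp9 does Dtx3l. The signal factors Stat2, at 0.33 ± 0.20, and Usp18, at -0.50 ± 0.35, did not pass the test, while Irf7, at 0.86 ± 0.38, and Irf9, at 0.67 ± 0.16, were higher in macrophages.

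Per kilobase of exon, in mono-culture at 0 h, Ifitm3 was the most abundant of the set in both cell types, at 256 CPM per kb in macrophages and 311 CPM per kb in tumour cells. Its protein sits in membranes and hinders virus entry. Lgals3bp, a secreted glycoprotein, followed at 84.3 and 89.0 CPM per kb in macrophages and in tumour cells. Bst2, which tethers budding virus to the cell surface, stood at 51.7 CPM per kb in macrophages and 26.0 CPM per kb in tumour cells. The least abundant was Ifit3b in macrophages, at 0.218 CPM per kb, and Mx1 in tumour cells, at 0.208 CPM per kb. 

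**Figure D2:**
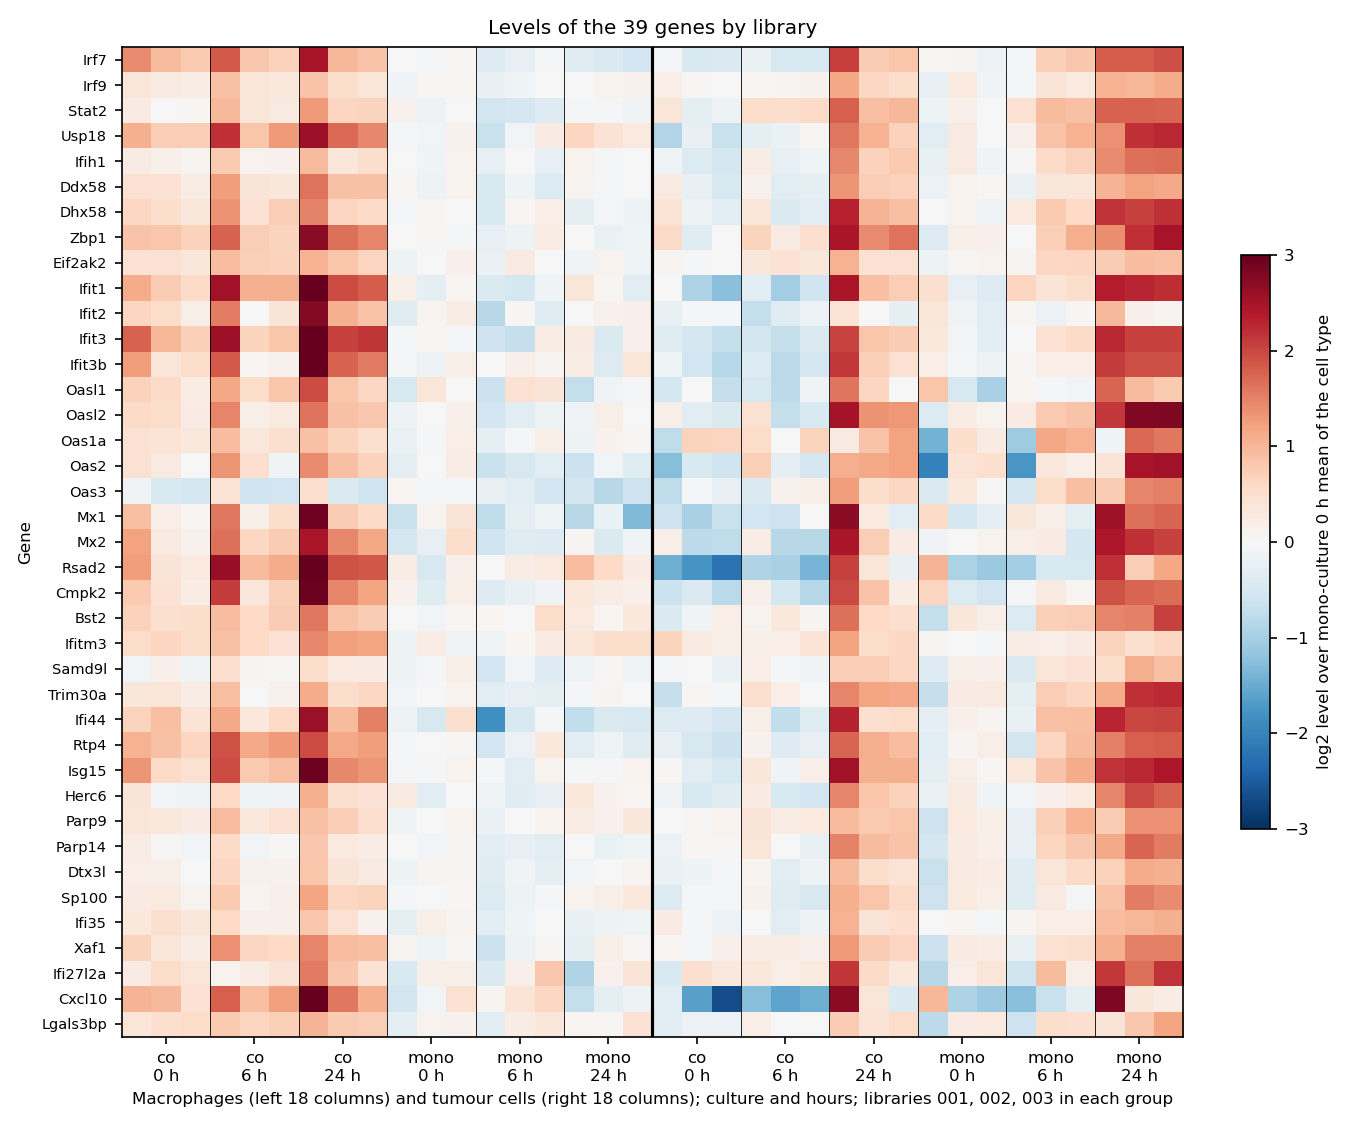
Log2 level of each of the 39 genes (rows, by role) in each of the 36 libraries (columns) over the mean of the mono-culture 0 h group of the same cell type, on a colour scale from -3 to 3. Macrophages fill the left 18 columns and tumour cells the right 18, and the 3 columns of a group are libraries 001, 002 and 003. Values ran from -2.66 to 3.98, and 5 of the 1404 cells lie beyond the scale.

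Tumour cells grown alone carried higher levels of most of the set 24 h after myelin. At 24 h against 0 h in mono-culture, edgeR called 32 of the 39 genes higher and none lower (DESeq2: 34), where 3.66% of all genes tested were called higher. The median change over the 39 was 1.73 on the log2 scale, against a median near 0 over all genes, and all 39 had a positive change. All 4 signal factors, all 5 sensors, all 4 nuclear or mitochondrial proteins and all 5 genes of the Isg15 and ADP-ribosylation group were called, with 9 of the 10 other antiviral effectors. Of the Ifit genes 3 of 4 were called, of the Oas genes 2 of 5, and of the secreted proteins 0 of 2.

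Among the signal factors in tumour cells in mono-culture, Irf7 stood at 9.22, 9.36 and 7.70 CPM at 0 h, 8.48, 14.6 and 15.8 CPM at 6 h and 32.3, 32.0 and 35.1 CPM at 24 h. Stat2 stood at 42.7, 53.2 and 47.6 CPM at 0 h, 65.8, 93.2 and 87.7 CPM at 6 h and 165, 164 and 161 CPM at 24 h. Usp18 stood at 9.03, 13.8 and 11.3 CPM at 0 h, 12.7, 21.1 and 24.0 CPM at 6 h and 30.3, 54.1 and 56.5 CPM at 24 h. Every 24 h library of the 3 genes lay above every 0 h library, and the changes at 24 h against 0 h were 1.92 ± 0.31 for Irf7, 1.77 ± 0.21 for Stat2 and 2.04 ± 0.30 for Usp18, with adjusted p-values of 0.0022, 0.000833 and 0.00137. Irf9, the DNA-binding partner of Stat2, changed by 1.07 ± 0.16.

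Of the effectors in tumour cells in mono-culture, Ifit1 stood at 68.8, 41.7 and 37.7 CPM at 0 h, 77.2, 64.8 and 71.7 CPM at 6 h and 256, 245 and 231 CPM at 24 h. Isg15, a ubiquitin-like protein joined to other proteins, stood at 12.7, 17.5 and 15.7 CPM at 0 h, 19.2, 28.0 and 33.6 CPM at 6 h and 70.7, 75.5 and 84.9 CPM at 24 h. At 24 h against 0 h they rose by 2.31 ± 0.43 (adjusted p = 0.00496) and 2.33 ± 0.34 (adjusted p = 0.00142), with no overlap of the 24 h and 0 h groups. The 3 largest called changes were those of Oasl2, Mx1 and Mx2. Oasl2, an Oas-like protein with ubiquitin-like domains, stood at 87.4, 138 and 139 CPM at 24 h, against 14.6, 23.1 and 21.1 CPM at 0 h (2.63 ± 0.38). Mx1, a GTPase that traps viral nucleoprotein, stood at 6.98, 3.53 and 3.85 CPM at 24 h, against 1.41, 0.397 and 0.555 CPM at 0 h (2.61 ± 0.79, adjusted p = 0.049). Its relative Mx2 stood at 16.5, 14.0 and 12.8 CPM at 24 h, against 2.45, 2.70 and 2.94 CPM at 0 h (2.42 ± 0.55). In each of the 3 the groups did not overlap. Bst2 stood at 14.0, 30.0 and 26.3 CPM at 0 h, 17.6, 38.7 and 39.4 CPM at 6 h and 65.2, 67.9 and 98.2 CPM at 24 h. Ifitm3 stood at 223, 208 and 202 CPM at 0 h, 246, 241 and 250.3 CPM at 6 h and 337, 293 and 324 CPM at 24 h. Both passed the test at 24 h, at 1.71 ± 0.36 and 0.59 ± 0.16, and for both the 24 h values lay above all 0 h values.

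Of the set, 7 genes were not called in tumour cells in mono-culture. Cxcl10, a chemokine that draws T cells through the receptor Cxcr3, stood at 15.6, 3.73 and 3.25 CPM at 0 h, 2.87, 4.58 and 6.14 CPM at 6 h and 55.7, 9.70 and 8.88 CPM at 24 h. Rsad2 (viperin), whose product makes a chain-terminating nucleotide, stood at 12.9, 2.94 and 2.54 CPM at 0 h, 2.74, 4.31 and 4.26 CPM at 6 h and 29.8, 10.5 and 14.3 CPM at 24 h. For both, library 001 was the highest at 0 h and at 24 h, its 0 h value lay above at least 1 of the 24 h values, and the changes at 24 h were 1.73 ± 0.94 for Cxcl10 and 1.58 ± 0.65 for Rsad2. Lgals3bp stood at 147, 303 and 310.4 CPM at 0 h, 166, 368 and 362 CPM at 6 h and 330.2, 445 and 574 CPM at 24 h, a change of 0.83 ± 0.29 at 24 h, with library 001 the lowest at each time and no overlap of the 24 h and 0 h groups. Oas2, Oas1a and Oasl1 had changes of 2.15 ± 0.70, 1.53 ± 0.79 and 1.50 ± 0.58. Ifit2 stood at 117, 66.0 and 63.5 CPM at 24 h, against 76.2, 55.1 and 47.1 CPM at 0 h, the smallest change of the set (0.47 ± 0.24), and its groups overlapped.

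At 6 h against 0 h in tumour cells in mono-culture, edgeR called 0 of the 39 genes (DESeq2: 0), with 6 at an unadjusted p under 0.05, where 0.00735% of all genes were called. The median change was 0.35 on the log2 scale and 33 of the 39 were positive. Of the 32 genes called at 24 h, 24 were called in every fit that left out 1 library. The other 8 were Oas3, Samd9l, Ifitm3, Cmpk2, Ifi27l2a, Dtx3l, Parp9 and Mx1, whose highest adjusted p in those fits ran from 0.0589 to 0.162. From libraries 002 and 003 alone, 39 genes were called at 24 h and 18 at 6 h, where 16.8% and 3.04% of all genes were called higher.

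Macrophage RNA was also higher at 24 h than at 0 h in some of these libraries. Judged by 50 macrophage marker genes, its share in tumour cells in mono-culture averaged 1.32% at 24 h, against 0.285% at 0 h. With 20 marker genes it averaged 0.485% and 0.124%. The markers were picked by their levels in mono-culture at 0 h, so a low share there is partly built in. None of the 12 listed macrophage markers was called. In library 001 the share by 50 markers was 0.00182% at 24 h and 0.000845% at 0 h. In library 002 it was 0.362%, 1.91% and 1.70% at 0, 6 and 24 h, and in library 003 0.493%, 0.712% and 2.27%. The median change of the 39 genes within library 001 was 1.69 on the log2 scale, with all 39 higher at 24 h. In libraries 002 and 003 the median change was 1.51 and 1.79. The part of carried macrophage RNA in the rise was not tested.

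**Figure D3:**
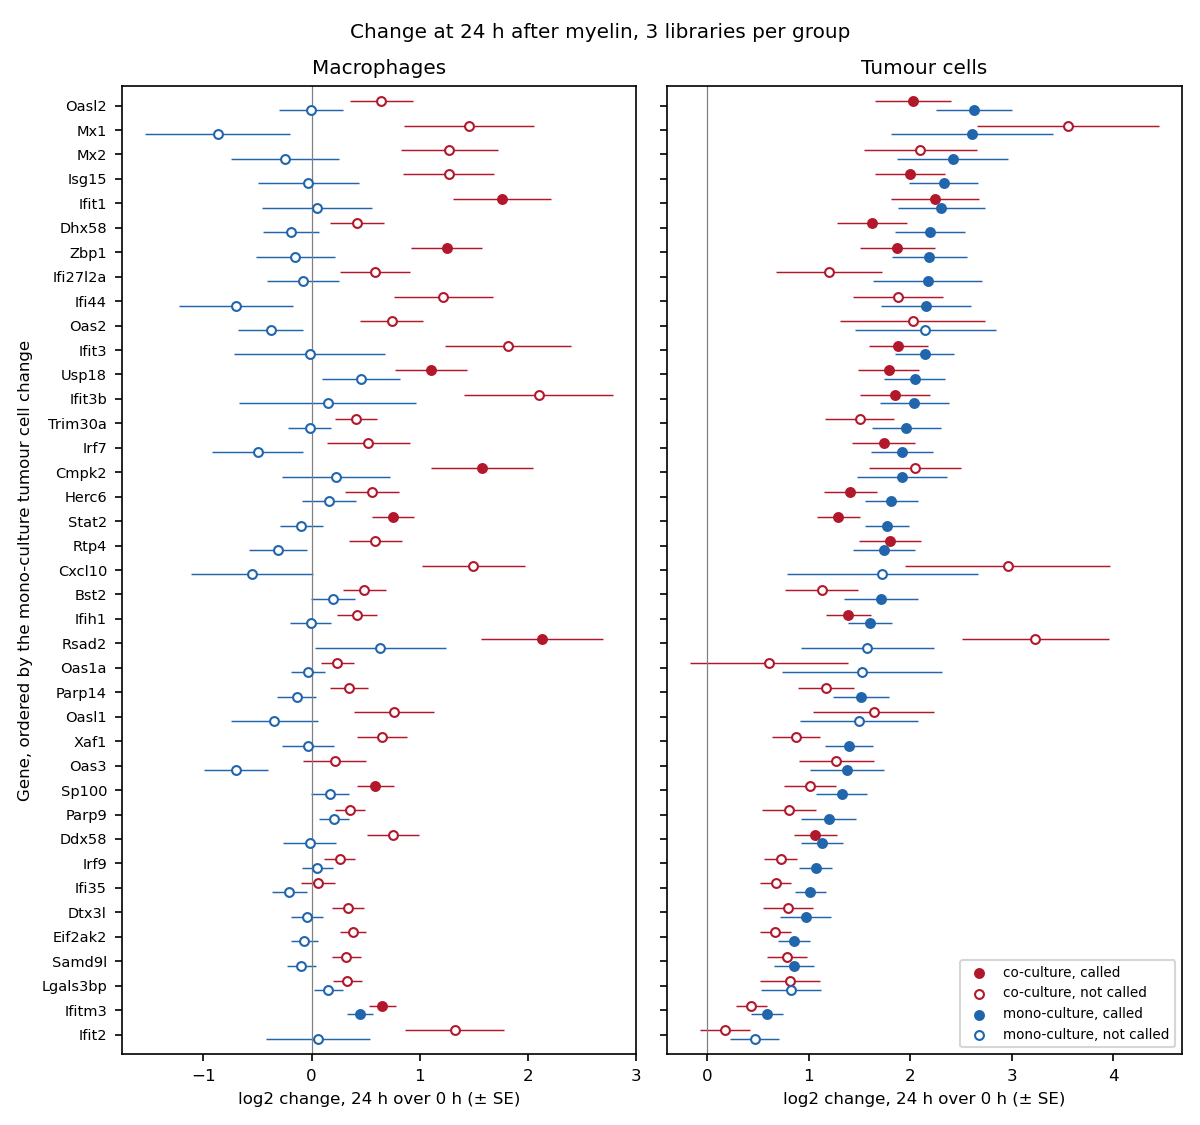
Log2 change at 24 h over 0 h for each of the 39 genes, with its standard error, in macrophages (left) and tumour cells (right). Red is co-culture and blue mono-culture, and filled points passed the test at an adjusted p under 0.05. In tumour cells all points lie above 0 in both cultures, and in macrophages the co-culture points lie above 0 while the mono-culture points straddle it.

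In co-culture with macrophages the tumour cells also held higher levels 24 h after myelin, with wider spread between libraries. At 24 h against 0 h edgeR called 14 of the 39 genes higher and none lower, where 0.478% of all genes tested were called higher. They were Ifit1, Ifit3, Ifit3b, Oasl2, Isg15, Zbp1, Rtp4, Usp18, Irf7, Stat2, Dhx58, Ddx58, Ifih1 and Herc6, that is 14 of the 32 genes called in mono-culture. The median change was 1.41 on the log2 scale and all 39 were positive.

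In these tumour cells, Ifit1 stood at 48.8, 25.8 and 20.3 CPM at 0 h, 38.8, 23.8 and 32.7 CPM at 6 h and 271, 92.3 and 82.6 CPM at 24 h. Isg15 stood at 15.8, 12.2 and 11.1 CPM at 0 h, 19.3, 14.1 and 17.7 CPM at 6 h and 90.2, 32.6 and 32.4 CPM at 24 h. Oasl2 stood at 113, 50.4 and 49.1 CPM at 24 h, against 22.3, 15.6 and 14.4 CPM at 0 h. For all 3 the 24 h libraries lay above the 0 h libraries, library 001 was far above the other pair at 24 h, and the changes were 2.24 ± 0.43, 2.00 ± 0.34 and 2.03 ± 0.37, with adjusted p-values of 0.0245, 0.0151 and 0.0193. Irf7 stood at 8.38, 6.19 and 6.38 CPM at 0 h, 7.62, 6.19 and 6.10 CPM at 6 h and 38.4, 15.2 and 16.0 CPM at 24 h. Stat2 stood at 61.5, 39.4 and 43.3 CPM at 0 h, 69.9, 69.3 and 71.0 CPM at 6 h and 166, 90.1 and 95.2 CPM at 24 h. Usp18 stood at 5.97, 9.52 and 6.99 CPM at 0 h, 9.23, 9.90 and 11.9 CPM at 6 h and 35.0, 23.9 and 18.7 CPM at 24 h. These 3 also rose without overlap at 24 h against 0 h, by 1.74 ± 0.31, 1.29 ± 0.21 and 1.79 ± 0.30.

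Mx1, Rsad2 and Cxcl10 were low at 0 h in tumour cells in co-culture and were not called. Mx1 stood at 7.88, 1.09 and 0.533 CPM at 24 h, against 0.332, 0.151 and 0.307 CPM at 0 h, where its libraries held 2 to 4 counts, so no fold is given (adjusted p = 0.0859). Rsad2 stood at 1.91, 1.44 and 0.922 CPM at 0 h, 3.04, 2.89 and 2.01 CPM at 6 h and 26.7, 8.00 and 5.18 CPM at 24 h, and its change of 3.23 ± 0.72 at 24 h did not pass the test (adjusted p = 0.057). Cxcl10 stood at 5.81, 2.11 and 0.768 CPM at 0 h, 2.79, 2.20 and 2.41 CPM at 6 h and 51.6, 9.86 and 5.40 CPM at 24 h, with a change of 2.96 ± 1.01 (adjusted p = 0.208). The 24 h and 0 h groups were apart for Mx1 and Rsad2 and overlapped for Cxcl10. Bst2 stood at 17.3, 21.9 and 26.8 CPM at 0 h, 25.2, 29.2 and 24.7 CPM at 6 h and 74.7, 35.8 and 33.3 CPM at 24 h. Ifitm3 stood at 337, 255 and 239 CPM at 0 h, 239.6, 244 and 279 CPM at 6 h and 487, 307 and 326 CPM at 24 h. Lgals3bp stood at 199, 225 and 223 CPM at 0 h, 292, 250.1 and 255 CPM at 6 h and 430.4, 338 and 370 CPM at 24 h. None of these 3 passed the test at 24 h, with changes of 1.13 ± 0.36, 0.44 ± 0.15 and 0.82 ± 0.29, though the groups overlapped for Ifitm3 alone.

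The number of genes called in tumour cells in co-culture at 24 h depended on single libraries. Leaving out co-culture 0 h library 002 or 003 gave 0 calls, and leaving out co-culture 24 h library 001 gave 6. Libraries with the same number deviated together in the tumour cells, and once the number entered the fit as a block 33 of the 39 genes were called, where 4.26% of all genes were called higher. A fit of these 2 groups alone called 0 and DESeq2 called 30. Libraries 002 and 003 alone called 34, where 11.2% of all genes were called higher. Within library numbers 001, 002 and 003 the median change at 24 h was 2.00, 1.10 and 1.04 on the log2 scale, and 39, 39 and 37 of the 39 genes were higher. At 6 h against 0 h edgeR called 0 genes (DESeq2: 0), with 2 at an unadjusted p under 0.05, where 0.0147% of all genes were called.

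Tumour cells in co-culture, set against those in mono-culture at the same time, had lower levels of the set in libraries 002 and 003 and not in library 001. Over all 3 libraries edgeR called 0 of the 39 genes at 0, 6 and 24 h (DESeq2: 0 at each time), with 2, 8 and 8 at an unadjusted p under 0.05, where 0%, 0% and 0.0809% of all genes were called in either direction. The median differences were -0.21, -0.38 and -0.48. At 24 h the ratio within library 001 had a median of 0.19 on the log2 scale, with 34 genes higher in co-culture. Within libraries 002 and 003 it was -0.88 and -0.89, with 37 and 38 genes lower in co-culture. Ifit1 shows the pattern, at 271, 92.3 and 82.6 CPM in co-culture, against 256, 245 and 231 CPM in mono-culture.

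From libraries 002 and 003 alone, 19 of the 39 genes were called lower in tumour cells in co-culture at 0 h, 27 at 6 h and 35 at 24 h, where 7.58%, 5.78% and 10.4% of all genes were called lower. When blocked by number over all 3 libraries, Ifit3 was the 1 gene called at 24 h, at -0.85, and leaving out co-culture 24 h library 001 gave 13. The macrophage RNA share in tumour cells averaged 1.97%, 1.52% and 1.81% in co-culture at 0, 6 and 24 h, against 0.285%, 0.873% and 1.32% in mono-culture. This share times the macrophages' own level made up a median over the 39 genes of 3.60%, 3.30% and 2.36% of the measured level in co-culture at 0, 6 and 24 h, against 0.359%, 0.803% and 0.659% in mono-culture, and at most 54.1% (Oas3 in co-culture at 0 h). In co-culture library 001 the share was 0.0366%, 0.0501% and 0.0734% at 0, 6 and 24 h. In co-culture libraries 002 and 003 it lay between 2.22% and 3.51%. With 20 marker genes the share averaged 1.06%, 0.936% and 1.03% in co-culture, against 0.124%, 0.346% and 0.485% in mono-culture. The part of carried macrophage RNA in these differences was not tested. The rise at 24 h itself was not called different between the cultures for any of the 39 genes by edgeR (DESeq2: 0), with 0 at an unadjusted p under 0.05 and 0% of all genes called. From libraries 002 and 003 alone 13 genes rose less in co-culture, where 2.13% of all genes did.

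Macrophages in co-culture with tumour cells held more of nearly the whole set than macrophages grown alone, with the most calls at 24 h. In co-culture against mono-culture at 24 h edgeR called 32 of the 39 genes higher and none lower (DESeq2: 36), where 14.3% of all genes tested were called higher and 13.7% lower. The median difference was 1.02 on the log2 scale and all 39 were positive. All 4 Ifit genes, all 4 signal factors, all 4 nuclear or mitochondrial proteins and both secreted proteins were called. Of the Oas genes 4 of 5, of the sensors 4 of 5 and of the other antiviral effectors 9 of 10 were called, and of the Isg15 and ADP-ribosylation group only Isg15.

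In macrophages at 24 h, Ifit3b stood at 9.75, 2.67 and 2.27 CPM in co-culture, against 0.594, 0.218 and 0.696 CPM in mono-culture, a fitted difference of 3.17 ± 0.74 that rests on 3 to 8 counts per library in mono-culture (adjusted p = 0.00475). Ifit3 stood at 53.8, 13.8 and 14.6 CPM in co-culture, against 3.66, 2.03 and 3.31 CPM in mono-culture (3.09 ± 0.63). Cxcl10 stood at 3.79, 3.63 and 2.37 CPM at 0 h, 6.78, 3.44 and 4.51 CPM at 6 h and 18.9, 5.82 and 3.94 CPM at 24 h in co-culture, against 0.953, 1.51 and 2.38 CPM at 0 h, 1.73, 2.32 and 2.77 CPM at 6 h and 0.792, 1.24 and 1.39 CPM at 24 h in mono-culture, a difference of 2.93 ± 0.53 at 24 h (adjusted p = 0.000783). At 24 h the cultures did not overlap for any of them, though library 001 stood far above the other pair in co-culture. The full courses show where the cultures part. Ifit1 in macrophages stood at 13.6, 10.6 and 9.23 CPM at 0 h, 36.7, 13.3 and 13.3 CPM at 6 h and 69.6, 24.9 and 22.7 CPM at 24 h in co-culture, against 6.95, 4.81 and 6.36 CPM at 0 h, 4.32, 4.03 and 5.46 CPM at 6 h and 7.92, 6.32 and 4.70 CPM at 24 h in mono-culture. Isg15 stood at 13.6, 7.90 and 7.30 CPM at 0 h, 21.4, 9.20 and 10.0 CPM at 6 h and 43.2, 14.9 and 13.6 CPM at 24 h in co-culture, against 4.90, 4.95 and 5.64 CPM at 0 h, 4.90, 3.96 and 5.55 CPM at 6 h and 4.95, 5.01 and 5.57 CPM at 24 h in mono-culture. Rsad2 stood at 21.0, 11.2 and 10.5 CPM at 0 h, 55.0, 17.0 and 19.1 CPM at 6 h and 127, 33.5 and 32.5 CPM at 24 h in co-culture, against 10.1, 5.98 and 9.54 CPM at 0 h, 8.64, 10.0 and 10.5 CPM at 6 h and 16.5, 13.2 and 10.2 CPM at 24 h in mono-culture. At each time every co-culture library of the 3 genes lay above every mono-culture library, and in co-culture each library number was highest at 24 h. Their differences at 24 h were 2.51 ± 0.47, 2.09 ± 0.44 and 2.15 ± 0.56.

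Irf7 in macrophages stood at 43.0, 31.4 and 27.7 CPM at 0 h, 58.1, 28.3 and 25.9 CPM at 6 h and 91.1, 32.2 and 29.3 CPM at 24 h in co-culture, against 16.1, 15.1 and 16.5 CPM at 0 h, 12.0, 13.3 and 15.3 CPM at 6 h and 12.2, 11.7 and 10.5 CPM at 24 h in mono-culture. Stat2 stood at 71.4, 60.1 and 62.6 CPM at 0 h, 119, 77.9 and 73.0 CPM at 6 h and 148, 94.6 and 96.8 CPM at 24 h in co-culture, against 66.2, 54.0 and 60.6 CPM at 0 h, 40.8, 42.2 and 45.8 CPM at 6 h and 59.1, 57.6 and 56.3 CPM at 24 h in mono-culture. Usp18 stood at 17.4, 13.7 and 13.7 CPM at 0 h, 38.3, 14.6 and 20.3 CPM at 6 h and 49.8, 27.1 and 22.8 CPM at 24 h in co-culture, against 7.63, 7.56 and 8.90 CPM at 0 h, 4.90, 7.57 and 9.54 CPM at 6 h and 12.8, 11.0 and 10.0 CPM at 24 h in mono-culture. Irf7 and Usp18 were apart between cultures at all 3 times, and Stat2 at 6 h and 24 h but not at 0 h. Their differences at 24 h were 2.03 ± 0.41, 0.85 ± 0.20 and 1.44 ± 0.34, with adjusted p-values of 0.00193, 0.00452 and 0.00571.

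The abundant members differed less and with tighter libraries. Bst2 in macrophages stood at 76.0, 65.1 and 67.7 CPM at 0 h, 89.4, 71.0 and 80.1 CPM at 6 h and 141, 84.4 and 78.8 CPM at 24 h in co-culture, against 47.0, 44.3 and 48.6 CPM at 0 h, 48.8, 45.9 and 68.7 CPM at 6 h and 57.3, 48.5 and 58.3 CPM at 24 h in mono-culture. Ifitm3 stood at 253, 273 and 248 CPM at 0 h, 319, 262 and 234 CPM at 6 h and 468, 405 and 392 CPM at 24 h in co-culture, against 156, 202 and 162 CPM at 0 h, 158, 179.6 and 207 CPM at 6 h and 225, 250.4 and 249 CPM at 24 h in mono-culture. Lgals3bp stood at 307, 339 and 353 CPM at 0 h, 414, 377 and 392 CPM at 6 h and 488, 414 and 399 CPM at 24 h in co-culture, against 197, 259.9 and 262 CPM at 0 h, 193, 281 and 305 CPM at 6 h and 249, 246 and 325 CPM at 24 h in mono-culture. Their cultures did not overlap at any of the 3 times, and at 24 h the differences were 0.77 ± 0.20, 0.69 ± 0.12 and 0.55 ± 0.14. Of the 7 genes not called, Oas3 and Herc6 had differences of 0.46 ± 0.29 and 0.40 ± 0.25, and Ifih1, Parp9, Parp14, Dtx3l and Samd9l lay between 0.31 and 0.50 with adjusted p-values from 0.0528 to 0.098.

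**Figure D4:**
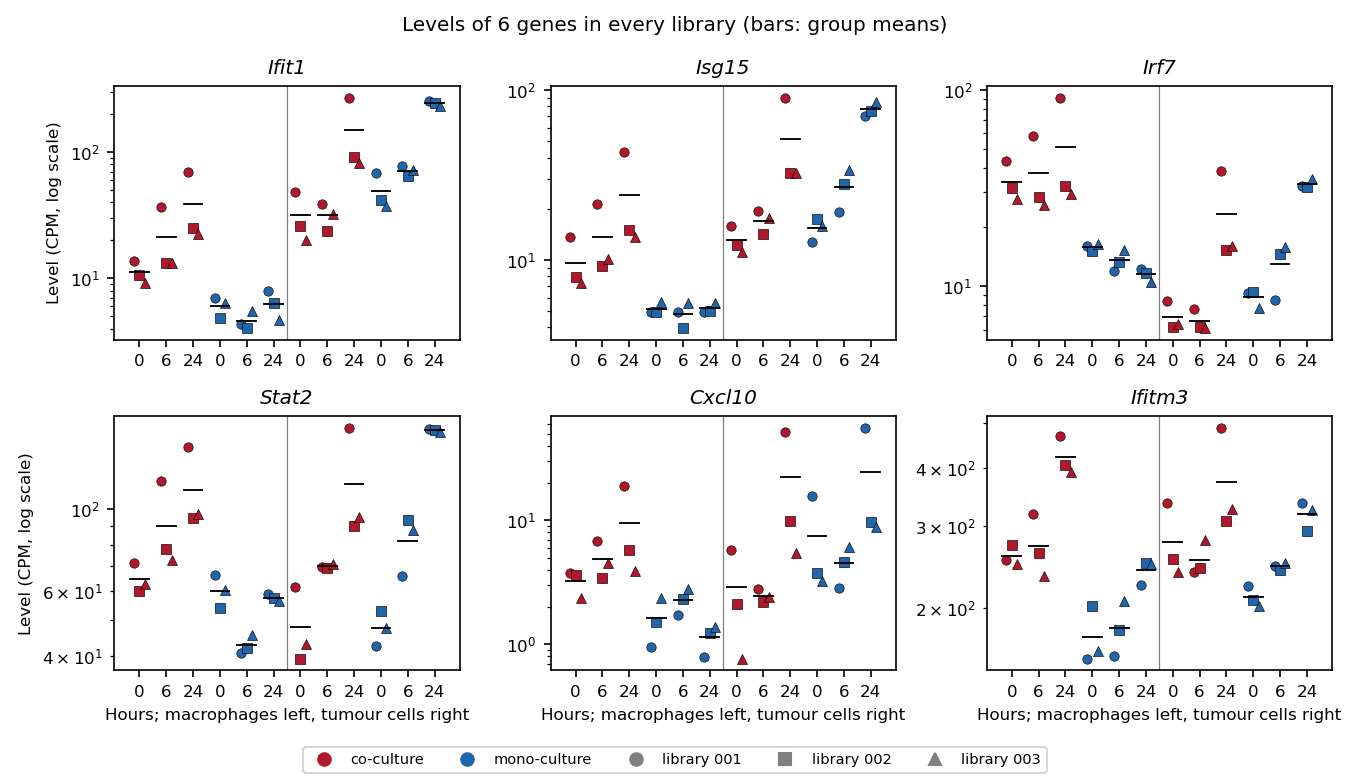
Level in CPM on a log scale of Ifit1, Isg15, Irf7, Stat2, Cxcl10 and Ifitm3 in every library by hours after myelin, macrophages on the left and tumour cells on the right of each panel. Red is co-culture, blue is mono-culture, shapes give the library number and bars the group mean. Among the co-culture points at 24 h, library 001 is the highest in both cell types for all 6 genes.

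In 22 of the 32 genes the call at 24 h held in every fit that left out 1 library. The other 10 were Ifit2, Oasl2, Oas1a, Rsad2, Cmpk2, Trim30a, Ifi35, Sp100, Ifi27l2a and Irf9, with a highest adjusted p of 0.0521 to 0.203. Libraries 002 and 003 alone also called 32 genes, 30 of them shared, where 12.9% of all genes were called higher. Within library numbers 001, 002 and 003 the median ratio of co-culture to mono-culture was 1.74, 0.75 and 0.77 on the log2 scale, and all 39 genes were higher in co-culture in each.

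At 6 h edgeR called 18 of the 39 genes higher in macrophages in co-culture (DESeq2: 25), where 5.81% of all genes were called higher. Among the genes called, the largest differences were in Ifit1 at 2.08 ± 0.49, Mx2 at 1.80 ± 0.49 and Usp18 at 1.60 ± 0.36. Mx2 stood at 5.97, 2.64 and 2.95 CPM in co-culture, against 0.864, 1.09 and 1.06 CPM in mono-culture, with no overlap. This count moved with single libraries. It was 5 without co-culture library 001, 6, 8 and 11 without mono-culture library 001, 002 and 003, and 6 in a fit of these 2 groups alone. From libraries 002 and 003 alone it was 14, with 12 of the 18 shared. With the number as a block it was 26, with all 18 shared. The share of all genes called in those fits is not given. Within library numbers 001, 002 and 003 the median ratio at 6 h was 1.73, 0.48 and 0.44 on the log2 scale. In them 39, 36 and 38 genes were higher in co-culture. Stat2, Usp18, Xaf1, Rtp4 and Eif2ak2 were called in every fit that left out 1 library. At 0 h, before myelin, edgeR called 1 gene, Ifitm3, higher in co-culture at 0.48 ± 0.12 (adjusted p = 0.0144), where 7.69% of all genes were called higher. DESeq2 called 4 genes and 8 had an unadjusted p under 0.05, while the median difference was 0.36 and 35 genes were positive. Blocked by number, Ifitm3, Irf7, Bst2 and Rtp4 were called higher at 0 h, where 10.6% of all genes were. A fit of these 2 groups alone called 10. For that fit and for DESeq2 at 0 h the share of all genes called is not given, so no excess is read from them. No gene was called without co-culture library 002 or without mono-culture library 001 or 003.

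After myelin 8 genes of the set rose in macrophages in co-culture and 1 in mono-culture. In co-culture at 24 h against 0 h edgeR called 8 of the 39 genes higher and none lower (DESeq2: 15), where 5.39% of all genes tested were called higher. They were Rsad2, Ifit1, Cmpk2, Zbp1, Usp18, Stat2, Ifitm3 and Sp100. The 3 largest were Rsad2 at 2.13 ± 0.56, Ifit1 at 1.76 ± 0.45 and Cmpk2, a mitochondrial nucleotide kinase, at 1.57 ± 0.47. Cmpk2 stood at 84.4, 29.9 and 24.5 CPM at 24 h, against 18.4, 14.4 and 12.3 CPM at 0 h, without overlap. The median change of the 39 was 0.65 on the log2 scale and all were positive, with 29 at an unadjusted p under 0.05.

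Ifitm3, at 0.66 ± 0.12, was the 1 gene called in every fit that left out a library. It was the only call without co-culture 0 h library 002 or 003 or without co-culture 24 h library 001, and a fit of these 2 groups alone also called 1 gene. Same-number macrophage libraries deviated together here, and with the number as a block 20 genes were called, where 9.4% of all genes were called higher. Libraries 002 and 003 alone called 18, including all 8, where 7.59% of all genes were called higher. At 6 h against 0 h edgeR called 0 of the 39 (DESeq2: 0), with 3 at an unadjusted p under 0.05, where 0.213% of all genes were called.

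In macrophages in mono-culture at 24 h against 0 h edgeR called 1 gene, Ifitm3, at 0.45 ± 0.12 (DESeq2: 1), where 7.57% of all genes tested were called higher. The median change of the 39 was -0.03 on the log2 scale, with 13 positive. Blocked by number, Oas3 was also called, lower, at -0.71. No gene was called without mono-culture 0 h library 001 or 003 or 24 h library 002 or 003. At 6 h edgeR called 0 genes (DESeq2: 0), with 2 at an unadjusted p under 0.05, where 2.15% of all genes were called. The block then called 1 gene, Stat2, lower at -0.46. The difference between the cultures in the 24 h change was positive for all 39 genes, at a median of 0.69, and edgeR called 0 of them (DESeq2: 0), with 13 at an unadjusted p under 0.05 and 0.0152% of all genes called. These contrasts share libraries, so their values are given side by side and not compared further.

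Tumour RNA in the sorted macrophages moved with culture. Judged by 50 tumour marker genes, its share in macrophages in co-culture was 2.73% ± 1.35 at 0 h, 2.12% ± 1.42 at 6 h and 5.00% ± 0.304 at 24 h (SD, n = 3), and at most 0.0902% in any macrophage library in mono-culture. Of 6 fibroblast and endothelial markers, which the tumour line expresses, 4 were called higher in macrophages in co-culture at 24 h, where 14.3% of all genes were. The tumour RNA share times the tumour cells' own level equals a median of 8.29% of the difference between the cultures in macrophages at 24 h, over 39 genes. At 0 h and 6 h it equals a median of 6.32% and 2.68%, over the 37 and 38 genes with a higher mean in co-culture. The highest shares at 24 h were 34.0% for Ifit3b, 23.7% for Ifit3, 22.7% for Ifit1 and 20.4% for Samd9l. For Rsad2 it was 1.31%, for Irf7 2.94%, for Stat2 10.6% and for Isg15 13.8%. Under this estimate, which is given without an error, the difference is larger than the carried level for all 39 genes. The part of carried RNA in the differences was not tested.

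**Figure D5:**
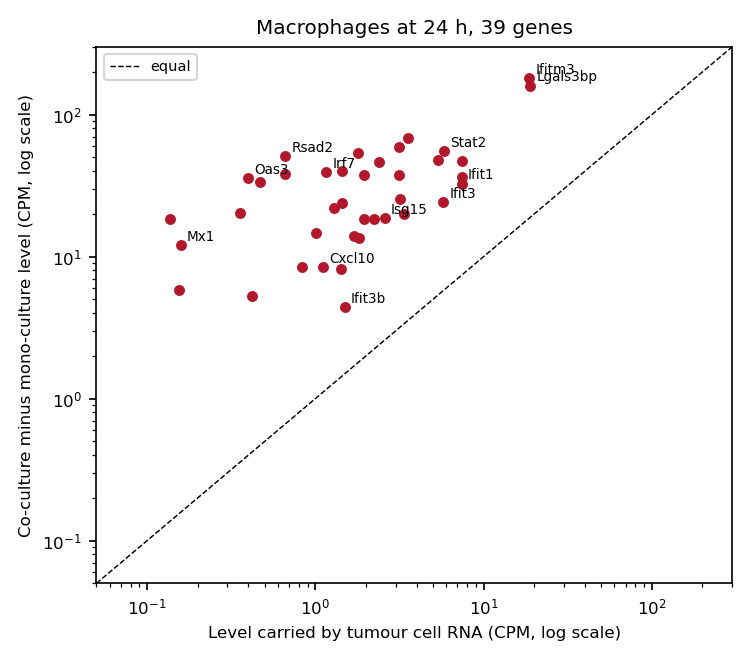
For each of the 39 genes in macrophages at 24 h, the difference of mean level between co-culture and mono-culture (vertical) against the level that carried tumour cell RNA would add (horizontal), both in CPM on log scales. The dashed line marks equality. All 39 points lie above it, with Ifit3b closest among the labelled genes.

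The interferon genes themselves were hardly seen. Ifnb1 had 6 counts in all 36 libraries, 5 of them in tumour cells, and at most 2 in a library. Ifnz had 6 counts, all in tumour cells, and reached 3 counts in 1 library only, tumour cells in co-culture at 6 h library 001. Ifna7, Ifnab and Ifne had 1, 2 and 2 counts. The limit that a count of 0 allows, 3 counts, equals 0.196 to 0.379 CPM per library, so lower levels were not detectable at this depth. Ifnar1, a receptor chain, averaged 129 ± 4.87 CPM in macrophages in co-culture at 24 h, 117 ± 11.2 CPM in mono-culture, 66.4 ± 2.97 CPM in tumour cells in co-culture and 68.2 ± 4.25 CPM in mono-culture (SD, n = 3 each). At 24 h against 0 h Ifnar1 was called lower in macrophages, at -0.47 ± 0.10 in co-culture and -0.41 ± 0.10 in mono-culture.

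Interferon-induced GTPases, which attack the vacuoles of intracellular microbes, and 48 further interferon-stimulated genes were followed beside the set. In tumour cells in mono-culture at 24 h against 0 h, 3.66% of all genes tested were called higher. Of these lists, 13 of 14 tested GTPases and 27 of 39 tested further genes were called higher, at medians of 1.87 and 1.01 on the log2 scale. Those with large changes included the GTPases Iigp1 and Tgtp2, at 2.92 ± 0.46 and 2.41 ± 0.39, and the further genes Ifi203, Ddx60 and Uba7, at 2.38 ± 0.55, 2.36 ± 0.33 and 2.05 ± 0.34. Iigp1 averaged 33.3 ± 5.84 CPM at 24 h, against 4.41 ± 1.79 CPM at 0 h, and the helicase Ddx60 averaged 18.2 ± 4.98 CPM at 24 h, against 3.52 ± 1.42 CPM at 0 h (SD, n = 3 each). In co-culture, where 0.478% of all genes were called higher, 8 of the 14 GTPases and 10 of the 39 further genes were. They were led by Iigp1 at 2.96 ± 0.48 and Phf11d at 2.02 ± 0.37. In macrophages in co-culture against mono-culture at 24 h, 14.3% of all genes were called higher and 13.7% lower. In that comparison 8 of 12 tested GTPases were called higher, with 17 of 43 tested further genes higher and 3 lower. Apol9b, Iigp1, Slfn1 and Gbp5 were among those called higher. Apol9b and Iigp1 averaged 1.42 ± 0.640 and 2.48 ± 0.936 CPM in co-culture, against 0.0290 ± 0.0502 and 0.116 ± 0.201 CPM in mono-culture, and Slfn1 and Gbp5 averaged 2.36 ± 3.16 and 3.64 ± 2.65 CPM in co-culture, against 0.139 ± 0.0379 and 0.379 ± 0.446 CPM in mono-culture. The mono-culture means are near or under the level of 3 counts, so no fold is given. Apol9b and Tgtp2 have near copies in the mouse genome, so their reads may be shared. Tumour cells in co-culture held 19.9 ± 3.31 CPM of Apol9b and 17.1 ± 12.4 CPM of Iigp1 at that time, and the part of carried tumour RNA in those differences was not tested.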

How the data were processed

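The deposited table holds raw read counts per gene for 36 RNA-seq libraries, and the genome build is mm10 per the submitters' processing notes. RNA was primed with oligo-dT and amplified by template switching per the labels' protocols. The sources used here do not name the aligner or the counting tool, nor say whether strand was used. All 36 value columns were matched to samples by name. The members and gene lists were chosen with earlier results of these data known.

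From the deposited counts, edgeR 4.0.16 (TMM, filterByExpr, robust quasi-likelihood F-test, R 4.3.3, limma 3.58.1) was fitted once per cell type over its 18 libraries, with 13165 genes in macrophages and 13603 in tumour cells, and once over all 36 libraries with 14776 genes for macrophages against tumour cells. P-values were adjusted by Benjamini-Hochberg over all genes tested, and a gene was called at an adjusted p under 0.05. Errors of log2 changes are standard errors from the F statistic. Scripts were tested on simulated counts. Per-library log2 ratios used a pseudocount of 0.5 CPM. A numbered pair of libraries was taken as paired where the lowest correlation of same-number deviations over the number pairs was above 0.1. This held for all tumour comparisons (0.330 to 0.666) and for macrophages in co-culture at 24 h against 0 h (0.248), in mono-culture at 6 h (0.395) and 24 h (0.254), and in co-culture against mono-culture at 0 h (0.260). It did not hold for the other macrophage comparisons. The share of RNA from the other cell type was the median, over its 50 marker genes of at least 100 CPM, of the level in a library over the mean level in that cell type in the same culture and time. Markers were the genes of largest ratio between the cell types in mono-culture at 0 h, so the share in those groups is low in part by that choice. A second share used 20 such genes. Alternatives were DESeq2 1.42.0, no low-count filter, RLE scaling, the library number as a block, the compared groups alone, libraries 002 and 003 alone, and leaving out each library.

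Values in every library were printed for Ifit1, Rsad2, Isg15, Irf7, Stat2, Usp18, Cxcl10, Bst2, Ifitm3 and Lgals3bp, and for up to 3 called members of largest change per comparison and direction. Of other lists up to 3 called genes per comparison were named by size of change. One gene of the receptor and signalling list is not reported here.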

Additional observations from a re-analysis of the deposited data

How the results depend on the processing

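Counts of members called kept within 1.5 times for tumour cells in mono-culture at 24 h and for macrophages in co-culture against mono-culture at 24 h under all alternatives, though leaving out 1 library gave 25 to 31 and 22 to 35. For macrophages in co-culture at 24 h the 8 calls became 15 with DESeq2, 4 with no low-count filter, 1 with the compared groups alone, 20 with the replicate block, 18 from libraries 002 and 003, and 1 to 12 leaving out 1 library. In mono-culture at 24 h the count was 2 with the block, 3 from the compared groups alone, 3 from libraries 002 and 003, and 0 to 1 leaving out 1 library, and at 6 h it was 1 with the block and 2 from libraries 002 and 003. For macrophages in co-culture against mono-culture at 0 h it was 4 with DESeq2, 4 with the block, 10 from the compared groups, 7 from libraries 002 and 003, and 0 to 1 leaving out 1 library, and at 6 h it was 6 from the compared groups and 5 to 18 leaving out 1 library. For tumour cells in co-culture at 24 h it was 30 with DESeq2, 33 with the block, 0 from the compared groups, 34 from libraries 002 and 003, and 0 to 21 leaving out 1 library. Libraries 002 and 003 alone also gave 2 calls for tumour cells in co-culture at 6 h, 18 in mono-culture at 6 h, 20, 27 and 35 for co-culture against mono-culture at 0, 6 and 24 h, and 13 for the difference of cultures. In that comparison at 24 h the block gave 1 and leaving out 1 library 0 to 13. Of calls of single genes, Stat2 at 0 h (-0.29) and Oas2 at 6 h (-0.70) in tumour cells in co-culture against mono-culture turned direction with libraries 002 and 003 alone. Whether called or not, the positive changes in macrophages in co-culture at 6 h numbered 37 of 39 over all libraries, 25 from libraries 002 and 003 and 17 without co-culture 6 h library 001 (median -0.02). At 0 h 35 of the 39 differences between macrophage cultures were positive over all libraries, and 30 from libraries 002 and 003. The causes were not tested. Fits that leave libraries out also hold fewer libraries. Genes below about 0.196 to 0.379 CPM, the value of 3 counts in a library, were not measurable at this depth.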

Other observations

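A short list of genes tied to the interferon gamma side differed in the opposite direction from the type I set in macrophages at 24 h. In co-culture against mono-culture at 24 h edgeR called 4 of 5 tested genes lower and none higher, where 13.7% of all genes were called lower. At 6 h it called 1 of the 5 lower, but the share of all genes called lower is not given, so no excess is read from this count. The interferon-induced GTPases went the other way at 24 h, with 8 of 12 called higher, so the list does not stand for all genes that respond to interferon gamma. Ciita, the switch for MHC class II genes, averaged 2.42 ± 0.476 CPM in co-culture, against 13.7 ± 7.30 CPM in mono-culture (SD, n = 3 each), a log2 difference of -2.60 ± 0.49 (adjusted p = 0.0012). Irf1, a transcription factor induced by interferon gamma, averaged 25.5 ± 5.25 CPM in co-culture, against 49.7 ± 10.8 CPM in mono-culture (-1.08 ± 0.19, adjusted p = 0.000767). Cd274, which encodes the checkpoint ligand PD-L1, averaged 59.5 ± 8.89 CPM in co-culture, against 116 ± 37.1 CPM in mono-culture (-1.08 ± 0.34). Ifngr2, a chain of the gamma receptor, was lower by less (-0.55 ± 0.10). Before myelin, at 0 h, Ciita and Irf1 were already called lower in co-culture, at -2.11 ± 0.51 and -0.86 ± 0.20. The share of all genes called lower at 0 h is not given either. Tumour cells at 24 h against 0 h had 0 of 4 tested genes of this list called by edgeR in either culture. Of all genes, 3.66% were called higher in mono-culture and 0.478% in co-culture.

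Genes that restrain interferon signalling differed gene by gene. Socs3, an inhibitor of cytokine receptor kinases, averaged 17.4 ± 7.74 CPM in macrophages in co-culture at 0 h, against 2.84 ± 1.24 CPM in mono-culture (2.46 ± 0.43), and 13.9 ± 3.08 CPM in co-culture at 24 h, against 2.49 ± 0.538 CPM in mono-culture (2.34 ± 0.44). Samhd1, which breaks down nucleotides, was called lower in co-culture at 24 h (-0.39 ± 0.10). Of the sensing genes upstream of interferon, Cgas, which detects DNA in the cytosol, averaged 31.9 ± 4.74 CPM in co-culture, against 18.2 ± 4.35 CPM in mono-culture at 24 h (0.69 ± 0.16), and Tlr3 was also called higher (0.53 ± 0.15), while Irf5 and Tbk1 were called lower (-0.35 ± 0.11 and -0.22 ± 0.06). The part of carried tumour RNA in these values was not tested.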
